A study of Mus musculus with 24 samples.

Results

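Wounds of diabetic mice treated with a hydrogel were compared at day 7 with control wounds of the same day. The 6 libraries, 3 per group, were chosen by title out of 24 in the series: those titled TEOA at day 7 carry the treatment label Fmoc-KYF-AgNCs-3S1C-Hyd2 hydrogel, and those titled Dia at day 7 the label Diabetic control. The series concerns a peptide hydrogel with silver nanoclusters and a hydrogenase, an enzyme that makes hydrogen gas, meant for use with light. All animals are called diabetic. Strain, age, how diabetes was produced, whether light was applied and whether a library is 1 animal or a pool are not given in the sources used here. The other libraries are 12 wounds of days 1 and 14 (the same pair of groups, 3 libraries each) and 6 of RAW264.7 cells, a mouse macrophage line, which were not used here.

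Counts summed over genes were 12.8 to 13.6 M read pairs in the control wounds of day 7 and 14.3 to 17.4 M in the hydrogel wounds. Replicates of day 7 lay close together. Biological coefficients of variation, fitted per group, were 4.69% for controls and 11.2% for hydrogel wounds, against 14.9% to 55.3% in the groups of days 1 and 14. The median chi-square per gene between day 7 controls was 0.643 to 0.795, where counting noise alone gives 0.455. The labels do not say that replicates are separate animals, so each p-value reflects the spread among libraries alone, and that spread may be technical. In the main test this spread was fitted jointly over the wound libraries of days 1, 7 and 14, and not over those of day 7 alone. Replicate 1 stood apart from its group in both groups of day 1 and in the controls of day 14. In the hydrogel wounds of day 1 it was at -14.04 on the second principal component, with the other wounds at -108 and -80.3, and in the controls of day 1 it was at 20.7, with the others at -100.4 and -93.8. On the first principal component of all wounds, control replicate 1 of day 14 was at -78.01, next to the day 7 controls (-87.5 to -85.1), while the other day 14 controls were at 50.001 and 79.3. The symbol CT010467.1 stood at 29138, 4010 and 7253 CPM in day 7 controls and at 41761, 3006 and 4860 CPM in day 7 hydrogel wounds, so replicate 1 was highest in both groups, as it was in both groups of day 1 and in the controls of day 14.

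Levels are given as CPM, the count scaled to library size (TMM) and to 1 M counts, 3 values per group in replicate order. A log2 fold change is hydrogel minus control, from the edgeR quasi-likelihood test on all 18 wound libraries. The value after ± is an approximate standard error, derived as the absolute log2 fold change over the square root of the F statistic. Rose and fell are used of genes with an adjusted p below 0.05. Of 17592 genes tested, 3792 passed (21.6%): 1734 rose (9.86%) and 2058 fell (11.7%), with a median log2 fold change of 0.01 over all genes. The CPM ranges of the groups did not overlap in 70.2% of genes (35.3% higher and 34.9% lower in hydrogel wounds). The count of calls rests on the spread used. Without any 1 of the 6 day 7 libraries it was 1859 to 1990, without the 3 libraries that stood apart 9152, and when each day 7 group was reduced to a single pooled library, leaving days 1 and 14 to give the spread, 0 genes passed in edgeR (1347 had an unadjusted p below 0.05). Each call below is lost in that last fit. Of 426 called list members and named genes, 208 kept the call without any 1 of the 6 day 7 wounds, 104 lost it in 1 to 5 of those 6 fits and 114 in all 6. A left-out range after a count gives its lowest and highest value over the same 6 fits, and a gene said to be lost in all 6 did not pass without any 1 of the wounds. A reduced-set count is the number of the list that passed in the same direction without the 3 libraries that stood apart, a fit chosen after seeing the data, and is given where it differs by more than 1.5 times.

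Skin repairs by moving keratinocytes, the cells of the epidermis, over a bed of new tissue made by fibroblasts, vessels and macrophages. The epidermis then stratifies into a barrier of cornified cells and lipids, with sebaceous glands, hair follicles and pigment cells as appendages, while collagen is laid down and remodelled below. Under the dermis of the mouse lie a fat layer and a sheet of striated muscle, so wound samples can hold different amounts of each.

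Levels of genes of those layers differed between the groups. Summed over 25 skeletal muscle genes, levels were 45442 to 45989 CPM in control and 140965 to 160016 CPM in hydrogel wounds. Over 19 adipocyte genes the sums were 53527 to 54497 CPM in control and 6715 to 7851 CPM in hydrogel wounds. Sums over 15 basal keratinocyte genes were 960 to 967 CPM against 8363 to 8441 CPM. The groups overlapped in none of these 3 sums, and no gene of the 3 lists was at 0 in all 6 wounds. The part of these layers in the results below was not tested, and in bulk tissue more cells of a type cannot be told apart from more RNA per cell.

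**Figure D1:**
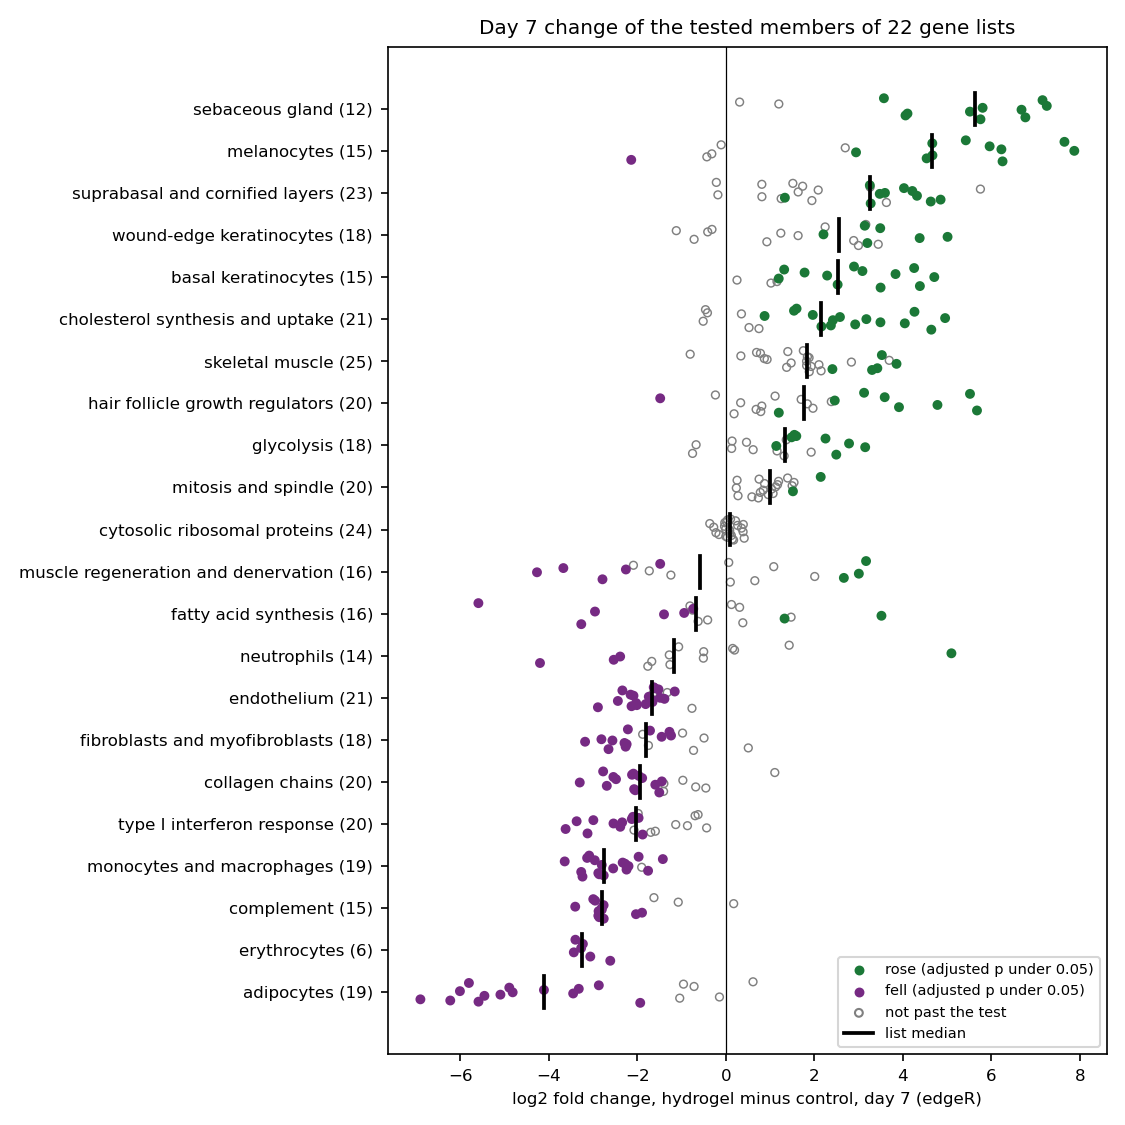
Log2 fold change at day 7 (x axis, hydrogel minus control, edgeR) of each tested member of 22 gene lists (y axis, number tested in brackets), with filled points for genes that rose or fell and a black bar at the list median. Sebaceous gland, melanocyte and keratinocyte lists lie to the right, ribosomal protein genes at 0, and macrophage, complement, erythrocyte and adipocyte lists to the left.

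Genes of the sebaceous gland had the highest median change of the 65 lists. This gland fills the skin surface with wax esters and other lipids. All 12 members were higher in every hydrogel wound than in any control, against 35.3% of all genes. Of the 12, 10 rose (left-out range 7 to 10), with a median log2 fold change of 5.63. Elovl4 (chr9:83778692-83806277, minus strand, GRCm38), which elongates very long fatty acids, stood at 23.1, 23.7 and 26.04 CPM in control and at 2462, 2608 and 2405 CPM in hydrogel wounds. The lowest hydrogel wound was far above the highest control, and the log2 fold change was 6.68 ± 1.54 (adjusted p = 0.00839). Scd3 (chr19:44203269-44244016, plus strand), a desaturase of fatty acids known from sebocytes, stood at 6.92, 5.28 and 6.005 CPM in control and 869, 892 and 835 CPM in hydrogel wounds (7.15 ± 1.41, adjusted p = 0.0041). Awat1, which joins fatty alcohols to fatty acids to make waxes, went from 0.818, 1.02 and 1.47 CPM to 120.5, 104 and 138 CPM (6.77 ± 1.57, adjusted p = 0.00865). Acsbg1, an acyl-CoA synthetase, stood at 6.17, 5.62 and 6.005 CPM and 322, 314 and 324 CPM, and Soat1, which makes cholesterol esters, at 39.1, 35.2 and 40.6 CPM and 456, 475 and 434 CPM. Far2, which reduces fatty acids to fatty alcohols, rose by 7.25 ± 1.81 on the log2 scale and Fa2h, a fatty acid hydroxylase, by 5.80 ± 1.503. Both lost their call without any 1 of the 3 control wounds, with adjusted p of 0.0291 to 0.0536 and 0.0341 to 0.0613 over the 6 fits that left out 1 day 7 library. At days 1 and 14 no member of the list passed, with medians of -0.75 and 1.02.

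The 12 genes with the largest rises among those of at least 50 CPM include 4 of these gland genes (Far2, Scd3, Awat1 and Elovl4). The other 8 are Hsd3b6, a steroid dehydrogenase, AAdacl4fm3 and Aadac, 2 genes of the arylacetamide deacetylase family, the serpins Serpina3b and Serpina3j, the patatin-like lipase Pnpla5, the epidermal lipoxygenase Alox12e, and Ly6g6c. Hsd3b6 stood at 0, 0.203 and 0.349 CPM in control wounds and at 101, 107 and 93.3 CPM in hydrogel wounds. Alox12e was measured at 1.41, 2.78 and 1.12 CPM and 219.7, 216 and 224 CPM (6.95 ± 1.48, adjusted p = 0.0059). Ly6g6c changed from 3.79, 4.06 and 4.61 CPM to 409, 387 and 411 CPM (6.59 ± 1.28, adjusted p = 0.00388). All 8 were near 0 in control wounds and above 90 CPM in each hydrogel wound. Serpina3j lost its call without any 1 of the control wounds (adjusted p 0.031 to 0.0592 over the 6 fits). Hsd3b6, AAdacl4fm3 and the Serpina3 and Scd genes have near copies in the genome, and pairs that map to several places were not counted, so their levels are uncertain.

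Keratinocyte genes were higher in hydrogel wounds in the basal and in the upper layers. Of 15 basal genes 12 rose (left-out range 8 to 9) and 0 fell (median 2.52), and of 23 tested genes of the suprabasal and cornified layers 10 rose (left-out range 6 to 10, reduced-set count 18) and 0 fell (median 3.25, or 2.37 with Krt2, which had 0 counts in control wounds, at its lower bound). Krt1 (chr15:101845426-101850794, minus strand), the keratin of cells that leave the basal layer, was measured at 8.85, 11.2 and 9.43 CPM in control and 177, 196 and 173 CPM in hydrogel wounds. That is a log2 fold change of 4.21 ± 0.80 (adjusted p = 0.00352), while its partner keratin Krt10, at 21.05, 18.8 and 19.3 CPM and 78.5, 95.5 and 76.8 CPM, did not pass (2.09 ± 0.83, adjusted p = 0.0823). Casp14, a protease of cornification, stood at 0.967, 0.677 and 1.05 CPM and 25.3, 31.5 and 21.3 CPM. Sbsn, suprabasin, stood at 31.8, 30.5 and 30.2 CPM and 303, 287 and 292 CPM. The late barrier genes were uneven. Lor (loricrin) and Flg (filaggrin), the main proteins of the cornified envelope and its keratin matrix, had log2 fold changes of 1.73 ± 1.06 (adjusted p = 0.249) and 0.81 ± 0.75 (adjusted p = 0.448), and Hrnr, hornerin, of -0.18 ± 0.55 (adjusted p = 0.836).

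Of 18 tested wound-edge keratinocyte genes, which mark migrating and stressed epidermis, 6 rose (left-out range 1 to 4, reduced-set count 12) and 0 fell (reduced-set count 3, median 2.56). Krt17 stood at 22.5, 22.3 and 26.5 CPM in control and 764, 704 and 830.2 CPM in hydrogel wounds (5.01 ± 1.17, adjusted p = 0.00899). Krt16 stood at 2.53, 2.44 and 3.14 CPM and 50.97, 43.4 and 74.7 CPM (4.38 ± 1.08, adjusted p = 0.0119), and lost its call without control replicate 2 (adjusted p 0.0268 to 0.0523 over the 6 fits). Krt6a, the keratin most used as a wound-edge marker, had 23.7, 23.2 and 23.1 CPM and 67.2, 68.04 and 81.6 CPM without overlap but did not pass (1.63 ± 0.67, adjusted p = 0.0896). Plau and Itga5, a protease and a fibronectin receptor chain of migrating cells, had log2 fold changes of -0.41 ± 0.32 (adjusted p = 0.373) and -0.72 ± 0.28 (adjusted p = 0.0757).

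The window before the start of an upper-layer gene is shown because 10 genes of these layers rose and 0 fell, and AP-1, a factor of the Jun and Fos families, is known to act in them. AP-1 letters TGANTCA, searched on both strands, occur in 7.81% of all 32851 windows in the RefSeq table (GRCm38.p6, 250 bases before to 50 bases after each start), in 6.03% of those of genes tested, in 9.17% of those of genes that rose and in 7.55% of those that fell. They occur in 5 of 21 windows of the upper-layer list, those of Lor, Flg, Flg2, Ivl and Sbsn, of which Lor and Flg did not pass. In lists described below, in which genes fell and 0 rose, they occur as well. These are 4 of 13 windows of guanylate-binding protein genes, 3 of 16 of type I interferon response genes and 1 of 18 of collagen chains. Ivl encodes involucrin, an early scaffold of the cornified envelope, and rose from 1.64, 1.42 and 0.908 CPM to 15.3, 16.6 and 12.4 CPM (3.48 ± 0.90, adjusted p = 0.0143), a call lost without control replicate 2 or 3 (0.0324 to 0.0622). It was taken after its values were seen, as a member that rose and holds the letters. The 250 bases before its start (chr3:92573736-92573985, minus strand, 5′ to 3′) follow, with the AP-1 letters in capitals.
Ivl: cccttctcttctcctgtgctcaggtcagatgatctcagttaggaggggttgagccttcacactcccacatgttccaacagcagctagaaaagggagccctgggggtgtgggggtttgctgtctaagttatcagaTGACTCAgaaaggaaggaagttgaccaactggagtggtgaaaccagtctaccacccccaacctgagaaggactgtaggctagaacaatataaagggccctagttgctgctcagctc
A match describes the letters and is not evidence of binding.

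Of 20 regulators of hair follicle growth 8 rose (left-out range 6 to 7, reduced-set count 13) and 1 fell, Tbx18, which was lost in all 6 fits (median 1.77). Wnt4 and Wnt3, secreted Wnt ligands, stood at 6.99, 6.98 and 7.4 CPM and 0.372, 0.0677 and 0.14 CPM in control wounds and at 62.3, 60.1 and 63.8 CPM and 8.9, 9.8 and 8.22 CPM in hydrogel wounds. Lgr6, which marks epidermal and follicle progenitors, stood at 2.31, 1.35 and 1.54 CPM and 47.3, 51.9 and 43.8 CPM (4.78 ± 0.86, adjusted p = 0.00288). Sostdc1, an inhibitor of Wnt and BMP signals, rose by 2.46 ± 0.53 (adjusted p = 0.00592). Of 23 tested genes of the hair shaft and root sheath 2 rose, Krt79 and Foxn1 (reduced-set count 7), and 0 fell, and 13 of 23 had positive values. Krt79, a keratin of the follicle funnel and gland duct, stood at 13.98, 14.9 and 12.5 CPM and 1006, 966 and 1068 CPM. Foxn1 lost its call without control replicate 2 (adjusted p 0.023 to 0.0509 over the 6 fits). The median of this list changed sign in 3 of 17 alternative fits.

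Genes of melanin synthesis were near 0 in control wounds. Of 15 melanocyte genes 10 rose (left-out range 5 to 8) and 1 fell (median 4.66, or 4.54 with Oca2, at 0 in control wounds, at its lower bound). Dct, an enzyme of melanin synthesis, stood at 1.26, 1.35 and 1.12 CPM in control and 90.4, 104 and 91.5 CPM in hydrogel wounds (6.25 ± 1.51, adjusted p = 0.0107). Pmel, the fibre protein of pigment granules, stood at 0.818, 1.08 and 1.05 CPM and 75.02, 72.7 and 74.8 CPM (6.23 ± 0.99, adjusted p = 0.00171). Tyr, tyrosinase, had 2 counts over the 3 control and 508 over the 3 hydrogel wounds. The member that fell, the endothelin receptor gene Ednrb (98.3, 97.3 and 96.9 CPM against 21.2, 23.1 and 22.05 CPM), is also expressed by vessels. Cd207, langerin of the Langerhans cells that sit in the epidermis, rose from 0.223, 0.542 and 0.279 CPM to 6.46, 8.74 and 6.81 CPM (4.36 ± 1.05, adjusted p = 0.0103).

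**Figure D2:**
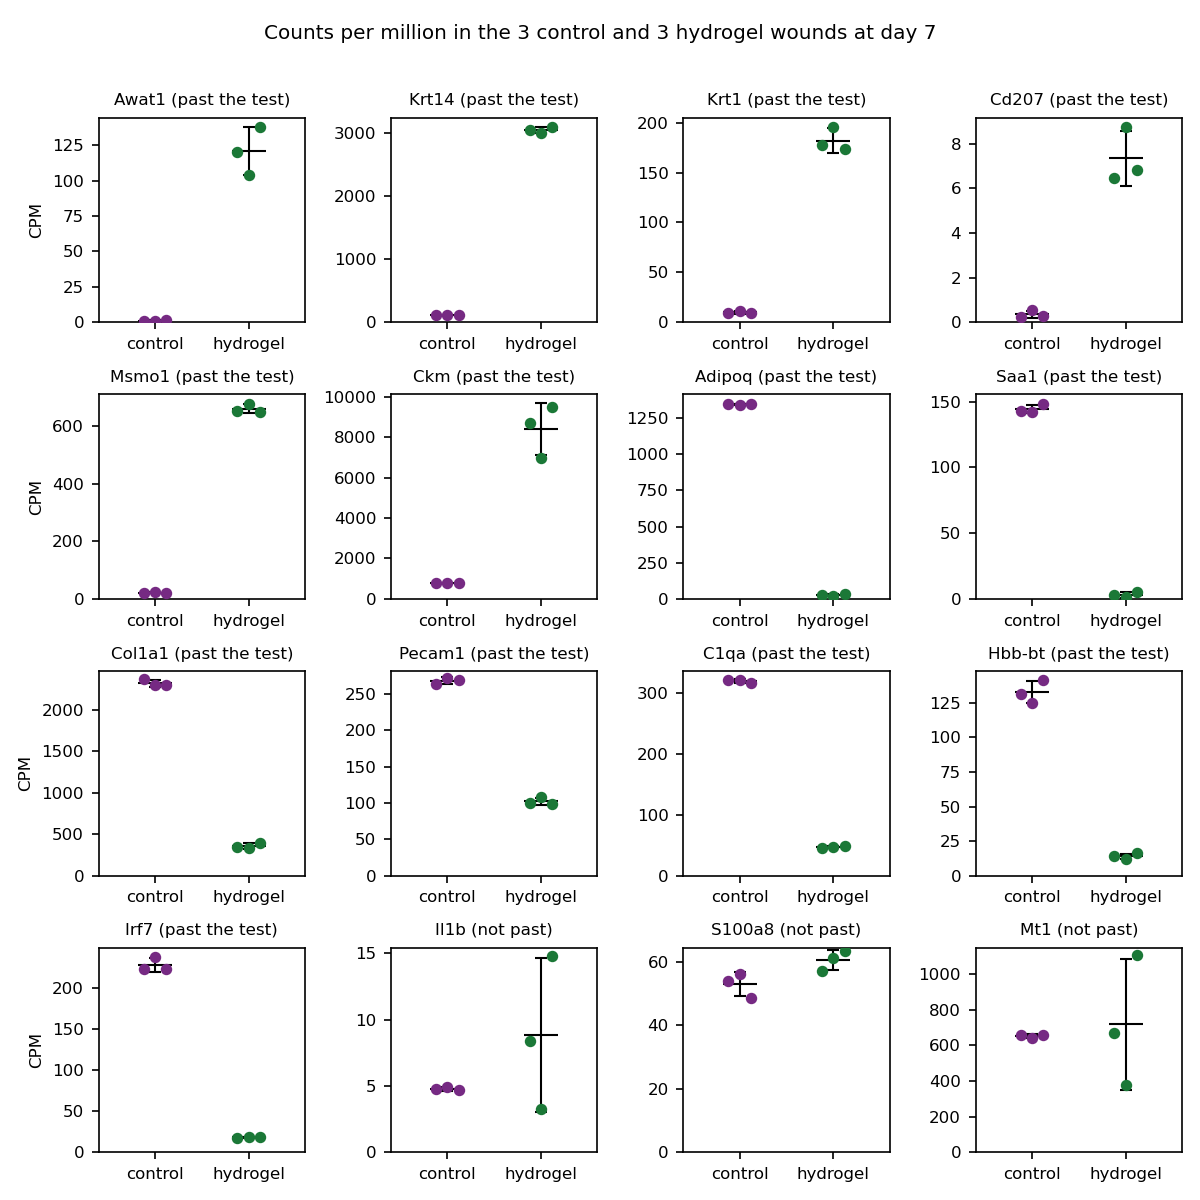
CPM (y axis of each panel, from 0) of 16 genes in the 3 control and 3 hydrogel wounds at day 7, each point 1 library, with the mean and SD in black. The groups are apart for the 13 genes marked past the test, while the hydrogel wounds spread around the controls for Il1b and Mt1.

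Genes of cholesterol synthesis mostly rose, while those of fatty acid synthesis fell more often than they rose. Cholesterol is built from acetyl-CoA in a long chain of steps, and the genes of these steps are known targets of the factor SREBP-2. Of 21 genes of cholesterol synthesis and uptake 15 rose (left-out range 10 to 13) and 0 fell (reduced-set count 3, median 2.16). Msmo1 (chr8:64718139-64733792, minus strand), a sterol oxidase, stood at 19.6, 22.6 and 21.7 CPM in control and 652, 678 and 650.04 CPM in hydrogel wounds. The 3 hydrogel values lay within 30 CPM of each other, and the log2 fold change was 4.95 ± 0.85 (adjusted p = 0.0024). Sqle, squalene epoxidase, went from 8.4, 8.47 and 9.78 CPM to 167, 164 and 181 CPM, and Hmgcs1, at the entry of the pathway, from 66.2, 62.7 and 62.003 CPM to 464, 529.8 and 452 CPM. Not all steps passed, though the groups overlapped in 0 of the 21 genes (no overlap in 70.2% of all genes). Without the 3 libraries that stood apart 17 rose. Pmvk, Ebp, Dhcr7 and Sc5d did not pass, with log2 fold changes of 0.35, 0.52, 0.75 and -0.42, and Insig1, which holds SREBP back, stood at -0.51 (adjusted p = 0.454). Fdps is uncertain, since its level was at most 2.87 CPM in any day 7 wound and reads shared with copies were not counted, and its call was lost in all 6 fits.

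**Figure D3:**
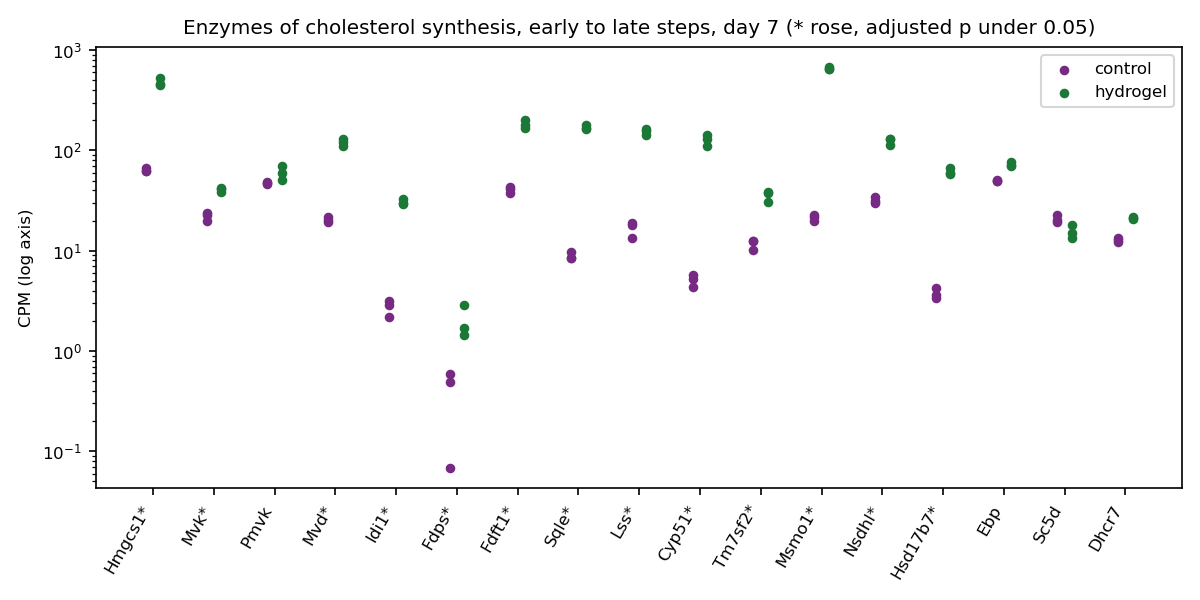
CPM (y axis, log scale) of 17 enzyme genes of cholesterol synthesis, from early to late steps, each point 1 of 3 control or 3 hydrogel wounds at day 7, with a star where the gene rose. Hydrogel points lie above control points at most steps, and below them for Sc5d.

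In the fatty acid list 2 of 16 genes rose, Elovl5 (lost in all 6 fits) and Elovl7, and 6 fell (left-out range 2 to 4, median -0.68). Fasn (chr11:120805846-120824547, minus strand), fatty acid synthase, stood at 4948, 5032 and 5143 CPM in control and 647, 567 and 731 CPM in hydrogel wounds (-2.96 ± 0.81, adjusted p = 0.0193). It lost its call without any 1 of the hydrogel wounds (adjusted p 0.0454 to 0.0729 over the 6 fits). Thrsp, a regulator of lipid synthesis in fat and liver, stood at 2101, 2113 and 2147 CPM and 42.5, 38.4 and 50.8 CPM (-5.59 ± 0.95, adjusted p = 0.00238). Elovl7 went the other way, from 8.48, 8.74 and 7.61 CPM to 92.3, 96.1 and 95.5 CPM (3.51 ± 0.64, adjusted p = 0.00305). Beside these lists the adipocyte sum was lower, as given above, and the sebaceous sum was higher, at 327 to 339 CPM in control and 7581 to 7714 CPM in hydrogel wounds. Their part in the split was not tested.

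Ceramides, the lipids that seal the cornified layer, were represented by 15 genes, of which 5 rose and 2 fell (median 0.27). Those that rose were Elovl4, Sptlc3, Pnpla1, Cyp4f39 and Acer1, and those that fell Ugcg and Asah1 (lost in all 6 fits). Sptlc3, a subunit of the enzyme that starts ceramide synthesis, stood at 0.446, 1.49 and 1.19 CPM in control and 47.9, 47.04 and 46.5 CPM in hydrogel wounds (5.48 ± 0.98, adjusted p = 0.00287). Pnpla1, which makes the acylceramides of the barrier, went from 0.372, 0.339 and 0.14 CPM to 8.83, 8.12 and 8.02 CPM (4.85 ± 0.84, adjusted p = 0.00258).

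The SREBP element letters TCACNCCAC, searched on both strands, were found in 1.24% of all promoter windows and in 1.19% of those of genes tested. The shares were 1.45% for genes that rose and 1.09% for genes that fell. The letters occur in 1 of 18 windows of the fatty acid list, 1 of 21 of the upper-layer list and 0 of 18 of collagen chains. In the cholesterol list they occur in 1 of 19 windows, that of Hmgcs1. Its 250 bases before the start (chr13:119690101-119690350, plus strand) are shown as the window of that list that holds the letters, in capitals.
Hmgcs1: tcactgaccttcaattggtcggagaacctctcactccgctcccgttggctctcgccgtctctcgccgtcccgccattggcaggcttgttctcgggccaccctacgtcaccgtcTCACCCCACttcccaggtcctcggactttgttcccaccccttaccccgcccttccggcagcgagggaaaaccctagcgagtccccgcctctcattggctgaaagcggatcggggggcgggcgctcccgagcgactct
The window of Sqle is not in the table, and no match in another window says only that these letters are not there.

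Adipocyte genes had the lowest median change of the 65 lists. Of 19 genes 14 fell (13 in each of the 6 fits) and 0 rose (median -4.11), and 8 of 19 had a lower hydrogel effect at day 7 than the mean of days 1 and 14. Adipoq (chr16:23146536-23158028, plus strand), the fat hormone adiponectin, stood at 1347, 1343 and 1348 CPM in control and 26.99, 23.4 and 33.4 CPM in hydrogel wounds (-5.59 ± 1.04, adjusted p = 0.00326). Cfd, the complement factor adipsin made by fat, went from 16307, 16026 and 16407 CPM to 354, 309 and 445 CPM, and Fabp4, a fatty acid carrier, from 14766, 14444 and 14296 CPM to 498, 572 and 470.3 CPM. Retn, resistin, stood at 1367, 1393 and 1426 CPM and 23.2, 25.5 and 26.1 CPM. Adrb3, the receptor through which fat cells answer to noradrenaline, stood at 121, 119.7 and 122 CPM and 1.36, 1.51 and 1.94 CPM (-6.23 ± 0.99, adjusted p = 0.00171). Pck1, of glycerol and glucose synthesis, had a log2 fold change of -5.79 ± 0.88, and Arxes2, an adipocyte gene of the endoplasmic reticulum, had -5.73 ± 1.07. Car3, carbonic anhydrase of fat and muscle, had 9554, 9112 and 9339 CPM and 4581, 5014 and 3989.9 CPM and did not pass (-1.04 ± 0.39, adjusted p = 0.0665).

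Saa1 (chr7:46740497-46742980, minus strand) and Saa2, serum amyloid A proteins induced in inflammation, stood at 143, 142 and 148 CPM and 214, 224 and 219 CPM in control wounds. In hydrogel wounds they stood at 2.73, 1.29 and 5.34 CPM and 3.23, 1.23 and 5.14 CPM. Log2 fold changes were -5.54 ± 0.82 (adjusted p = 0.00132) and -6.10 ± 0.92 (adjusted p = 0.0014). The 2 genes are near copies, so reads could not all be placed. Hp, haptoglobin, which binds free haemoglobin, went from 3543, 3615 and 3672 CPM to 151, 113 and 189 CPM (-4.58 ± 0.80, adjusted p = 0.00258), and Hpx, the haem binder hemopexin, from 14.8, 16.8 and 17.9 CPM to 0.574, 0.224 and 0.401 CPM. Lcn2, an iron-sequestering protein of neutrophils and epithelia, stood at 347, 357 and 351 CPM and 67.3, 43.3 and 90.6 CPM (-2.39 ± 0.33, adjusted p = 0.00104). Wfdc21, a small secreted protein, went from 71.7, 83.9 and 75.8 CPM to 1.15, 0.56 and 1.07 CPM. In all, 5 of 13 tested genes of haem breakdown and iron fell (left-out range 3 to 4, reduced-set count 10) and 0 rose (median -1.62), the other 2 being Blvrb, lost in all 6 fits, and Slc11a1, lost in 5, while the ferritin genes Fth1 and Ftl1 did not pass (-1.29 and -1.62, adjusted p = 0.0788 and 0.125).

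Extracellular matrix genes were lower across their classes. Collagen chains fell in 14 of 20 cases (left-out range 4 to 6) and rose in 0 (reduced-set count 1, median -1.93). Cross-linking enzymes and small proteoglycans fell in 14 of 20 (left-out range 9 to 13, median -1.89), and matrix glycoproteins and elastic fibre genes in 14 of 19 (left-out range 8 to 13, median -2.12). In these 3 lists 0 genes rose. Col8a1, a chain made in remodelling vessels and wounds, stood at 48.3, 50.1 and 43.7 CPM in control and 6.75, 6.33 and 7.68 CPM in hydrogel wounds (-2.77 ± 0.37, adjusted p = 8.61e-04). Eln, elastin, stood at 367, 371 and 377 CPM and 41.6, 46.9 and 36.4 CPM (-3.16 ± 0.64, adjusted p = 0.00474). Cthrc1, made by activated fibroblasts, went from 47.2, 42.1 and 42.5 CPM to 3.73, 3.02 and 4.94 CPM (-3.49 ± 0.57, adjusted p = 0.00212). Sparc, a collagen chaperone, stood at 2731, 2767 and 2812 CPM and 595, 562 and 651 CPM, and Loxl3, a lysyl oxidase that cross-links collagen, had -1.90 ± 0.26. Postn, periostin, had a log2 fold change of -1.95 ± 0.59 with an adjusted p of 0.0296, and lost its call without any 1 of the 6 day 7 wounds (0.0661 to 0.103).

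Of 19 proteases and inhibitors 6 fell (left-out range 3 to 4, reduced-set count 11) and 0 rose (reduced-set count 2, median -1.28). Adamts12 stood at 45.4, 42.9 and 40.4 CPM in control and 6.1, 6.16 and 5.88 CPM in hydrogel wounds (-2.82 ± 0.49, adjusted p = 0.00258), and Mmp11, stromelysin-3, at 23.4, 25.6 and 25.1 CPM and 7.61, 8.62 and 7.75 CPM. Mmp9, a gelatinase often high in chronic wounds, stood at 7.81, 8.06 and 8.45 CPM and 6.68, 5.82 and 8.62 CPM with overlapping groups (-0.20 ± 0.64, adjusted p = 0.841). Fibroblast and myofibroblast genes fell in 12 of 18 cases (left-out range 6 to 7) and rose in 0 (median -1.82). Lrrc15, of activated fibroblasts, stood at 41.9, 41.5 and 40.9 CPM and 4.09, 3.19 and 6.41 CPM. Pdgfrb, a growth factor receptor of fibroblasts and pericytes, stood at 128, 131 and 135 CPM and 57.5, 53.5 and 55.9 CPM. Acta2, the actin of myofibroblasts and vessel muscle, did not pass, at 285, 278 and 290.3 CPM and 171, 137 and 206 CPM (-0.73 ± 0.39, adjusted p = 0.19).

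In the TGF-beta list, the main signal that drives matrix synthesis, 4 of 18 genes fell, Tgfb1, Tgfbr3, Acvrl1 and Eng (left-out range 0 to 2), and 1 rose, Smad3, which was lost in 5 of 6 fits (reduced-set count 2, median -0.27). Tgfb1 itself stood at 70.8, 77.6 and 72.5 CPM in control and 37.8, 36.01 and 36.7 CPM in hydrogel wounds (-0.999 ± 0.33, adjusted p = 0.0419). It was lost in all 6 fits (adjusted p 0.087 to 0.112), as was Tgfbr3. Acvrl1 and Eng, receptors of the vessel wall, had -1.65 ± 0.44 and -1.81 ± 0.45. Eng lost its call without hydrogel replicate 2 and Acvrl1 in 3 of the 6 fits (adjusted p 0.0345 to 0.0507 and 0.0423 to 0.0673). The share that fell, 4 of 18, compares with 11.7% of all genes.

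Skeletal muscle genes were higher, but some genes of new muscle fibres were lower. In 24 of 25 genes of mature muscle every hydrogel wound was above every control, against 35.3% of all genes. Of the 25, 5 rose (left-out range 1 to 3) and 0 fell (median 1.84). Those that passed were Tnnc2 and Casq1, both lost in all 6 fits, Atp2a1, lost in 5, and Ckm and Mybpc2. The reduced-set count was 22. Ckm (chr7:19404776-19421584, plus strand), muscle creatine kinase, stood at 768, 778 and 802 CPM in control and 8726, 6961 and 9475 CPM in hydrogel wounds (3.42 ± 0.85, adjusted p = 0.0121). It lost its call without control replicate 2 (adjusted p 0.0284 to 0.0511 over the 6 fits). Acta1 and Myh4, the actin and a fast myosin of muscle, stood at 1.88 (adjusted p = 0.0742) and 1.82 (adjusted p = 0.121).

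Among 16 genes of muscle regeneration and denervation 3 rose (Myf6, Fbxo32 and Trim63, left-out range 0 to 1, reduced-set count 5) and 5 fell (Mymk, Mymx, Myh3, Ncam1 and Chrng, left-out range 2 to 4, reduced-set count 8), with a median of -0.59. Trim63 and Mymk were lost in all 6 fits, Ncam1 in 5, Myf6 in 3 and Chrng in 2. Myh3 (chr11:67078300-67102291, plus strand), the embryonic myosin of newly formed fibres, stood at 379, 366 and 378 CPM in control and 18.5, 18.5 and 21.2 CPM in hydrogel wounds, which is the opposite direction to the mature myosin Myh4 (-4.27 ± 0.91, adjusted p = 0.00572). Mymx and Mymk, which fuse muscle precursors, stood at 13.7, 11.99 and 13.6 CPM and 15.99, 16.9 and 16.97 CPM in control wounds and at 1.58, 0.448 and 1.07 CPM and 3.73, 2.41 and 4.28 CPM in hydrogel wounds. Fbxo32, a ubiquitin ligase of muscle loss, rose by 2.67 ± 0.91 with an adjusted p of 0.0486 and lost its call without any 1 of the day 7 wounds (0.0788 to 0.131). Myh8, the perinatal myosin, had -1.73 ± 0.72 (adjusted p = 0.0937).

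Vessel genes were lower as a group. Of 21 endothelial genes 18 fell (left-out range 8 to 12) and 0 rose (median -1.66). All 21 were lower in every hydrogel wound than in any control, against 34.9% of all genes. Cldn5, of the tight junction, stood at 298, 289.99 and 303 CPM in control and 38.7, 42.003 and 39.3 CPM in hydrogel wounds (-2.89 ± 0.44, adjusted p = 0.00142). Kdr, the main VEGF receptor, stood at 124, 124 and 124 CPM and 22.1, 22.2 and 24.2 CPM (-2.44 ± 0.39, adjusted p = 0.00194). Pecam1, CD31, the marker most used to count vessels, stood at 263, 272 and 269 CPM and 100.4, 108 and 98.5 CPM (-1.39 ± 0.45, adjusted p = 0.0378) and lost its call without any 1 of the day 7 wounds (0.0829 to 0.109). Of 6 tested lymphatic genes 3 fell (reduced-set count 5), Lyve1 (lost in all 6 fits), Mmrn1 (lost in 2) and Flt4, with Flt4, a VEGF-C receptor, at -1.97 ± 0.37. Of 8 pericyte and vessel muscle genes 1 fell, Higd1b (-1.81 ± 0.41, reduced-set count 4), and 0 rose (reduced-set count 1), while Rgs5 and Myh11 did not pass (-0.55 and 0.22, adjusted p = 0.225 and 0.789).

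Of 19 angiogenic factors and receptors 6 fell (left-out range 1 to 3, reduced-set count 11) and 0 rose (reduced-set count 1, median -0.84). Vegfa stood at 71.7, 78.3 and 73.7 CPM in control and 86.1, 79.97 and 77.9 CPM in hydrogel wounds, a log2 fold change of 0.12 ± 0.36 (adjusted p = 0.829). Angpt2, which loosens vessels for sprouting, stood at 22.5, 20.3 and 24.997 CPM and 6.82, 7.39 and 7.28 CPM (-1.66 ± 0.37, adjusted p = 0.00687). Red cell genes fell in 6 of 6 tested cases (left-out range 5 to 6, median -3.25), with Hbb-bs, a beta globin, at 541, 569 and 537 CPM and 59.01, 47.8 and 63.7 CPM (-3.27 ± 0.63, adjusted p = 0.00366) and Hba-a1, an alpha globin, at 407, 414 and 419 CPM and 48.4, 45.5 and 54.3 CPM. Globin copies share sequence, so single members are uncertain. Of 13 Schwann cell and myelin genes 2 rose, Egr2 and Ngfr (lost in all 6 fits), and 0 fell in edgeR (reduced-set count 4). Mbp, myelin basic protein, was uneven between hydrogel wounds, at 397, 414 and 407 CPM in control and 168, 87.3 and 281 CPM in hydrogel wounds (-1.18 ± 0.83, adjusted p = 0.313).

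Macrophage genes were lower. Of 19 monocyte and macrophage genes 18 fell (left-out range 9 to 13) and 0 rose (median -2.76), and the sums were 3527 to 3555 CPM in control and 516 to 638 CPM in hydrogel wounds. C1qa (chr4:136895917-136898803, minus strand), a chain of complement C1q made by tissue macrophages, stood at 321, 321 and 316 CPM in control and 45.8, 46.3 and 49.3 CPM in hydrogel wounds (-2.76 ± 0.68, adjusted p = 0.0117). Tyrobp, the adaptor of myeloid receptors, stood at 93.8, 101 and 101 CPM and 9.98, 14.9 and 9.89 CPM (-3.09 ± 0.65, adjusted p = 0.00542), and Cd68 at 113, 115 and 117 CPM and 25.7, 29.2 and 17.7 CPM. Alternative activation genes, which mark macrophages of repair, fell in 6 of 14 cases (left-out range 1 to 2) and rose in 0 (reduced-set count 1, median -1.89). Mrc1, CD206, stood at 277, 275 and 269 CPM and 41.6, 39.4 and 40.3 CPM (-2.76 ± 0.85, adjusted p = 0.032) but lost its call without any 1 of the day 7 wounds (0.0678 to 0.097), and Retnla stood at 45.7, 49.9 and 47.3 CPM and 11.3, 13.7 and 9.55 CPM. Arg1, arginase of the same state, had higher values with hydrogel, 9.97, 7.86 and 8.03 CPM against 29.7, 27.1 and 25.1 CPM, and did not pass (1.66 ± 0.59, adjusted p = 0.056). Nos2, the nitric oxide synthase of inflammatory macrophages, stood at -1.42 ± 0.46 in log2 units (adjusted p = 0.0376), a call lost without any 1 of the day 7 wounds (0.0786 to 0.123).

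Genes that macrophages use to take up and digest were lower with them. Complement genes fell in 12 of 15 cases (left-out range 5 to 8, median -2.81) and Fc and scavenger receptors in 9 of 12 (left-out range 4 to 6, median -2.11). Lysosomal genes fell in 8 of 19 (left-out range 3 to 5, reduced-set count 13, median -1.29) and NADPH oxidase genes in 4 of 9 tested (Cyba, Ncf1, Ncf4 and Rac2, left-out range 0 to 2, median -2.001). In these 4 lists 0 genes rose, with a reduced-set count of 1 among lysosomal genes. Cfp, properdin, stood at 125, 126 and 131 CPM in control and 14.4, 17.03 and 16.3 CPM in hydrogel wounds (-2.998 ± 0.66, adjusted p = 0.00679). Stab1, a scavenger receptor, stood at 178, 183 and 181 CPM and 31.9, 30.4 and 40.1 CPM (-2.41 ± 0.39, adjusted p = 0.00182). Cd36, a fatty acid and scavenger receptor also made by fat and vessels, went from 1218, 1275 and 1215 CPM to 265.32, 308 and 266 CPM. Hexa, a lysosomal hexosaminidase, had -1.80 ± 0.40 (adjusted p = 0.00689). Cyba, a membrane subunit of the oxidase, stood at 127, 125 and 133 CPM and 25.5, 32.8 and 21.9 CPM (-2.26 ± 0.61, adjusted p = 0.0179) and lost its call without hydrogel replicate 1 or 3 (adjusted p 0.045 to 0.0712). Genes of prostaglandins and leukotrienes fell in 7 of 16 cases (left-out range 2 to 4) and rose in 0 (reduced-set count 2, median -1.48), with Ltc4s, leukotriene C4 synthase, at 34.8, 36.4 and 34.6 CPM and 1.36, 2.35 and 1.74 CPM.

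Genes of the type I interferon response were lower in every hydrogel wound than in any control in 20 of 20 cases, against 34.9% of all genes. Of these 20, 11 fell (left-out range 4 to 7, reduced-set count 20, median -2.03). Among guanylate-binding proteins and immunity-related GTPases, which answer more to interferon gamma, 6 of 14 fell (left-out range 0 to 2, reduced-set count 11) and 0 rose (median -1.42). Irf7 (chr7:141262706-141266481, minus strand), which drives interferon production, stood at 223, 238 and 223 CPM in control and 17.8, 19.4 and 18.4 CPM in hydrogel wounds (-3.62 ± 0.89, adjusted p = 0.0116). Oas3 and Oas2, enzymes that sense viral RNA, had log2 fold changes of -3.37 ± 0.77 and -2.34 ± 0.37. Ifi27l2a, an interferon-induced gene, stood at 2193, 2299 and 2277 CPM and 36.8, 33.2 and 42.4 CPM (-5.91 ± 1.11, adjusted p = 0.0034). Stat2, a factor that carries the signal, had -0.63 ± 0.23 (adjusted p = 0.066). Bst2, tetherin, stood at -1.88 ± 0.55 in log2 units (adjusted p = 0.0247), a call lost without any 1 of the day 7 wounds (0.0569 to 0.0879).

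The interferon-stimulated response element, read as GAAA, any 2 bases and GAAA again, was searched on both strands of the same RefSeq windows, and its matches may overlap one another. It occurs in 3.44% of all windows, in 3.08% of those of genes tested, in 2.21% of those of genes that rose, in 5.31% of those of genes that fell, in 8 of 16 windows of the type I list and in 9 of 13 windows of the guanylate-binding protein list. The 250 bases before the start are shown for 4 members that fell and hold the letters, chosen after their values were seen, with matches in capitals: Isg15 (chr4:156200819-156201068, minus strand), Bst2 (chr8:71537473-71537722, minus strand), Oas1a (chr5:120907526-120907775, minus strand) and Gbp3 (chr3:142559794-142560043, plus strand).
Isg15: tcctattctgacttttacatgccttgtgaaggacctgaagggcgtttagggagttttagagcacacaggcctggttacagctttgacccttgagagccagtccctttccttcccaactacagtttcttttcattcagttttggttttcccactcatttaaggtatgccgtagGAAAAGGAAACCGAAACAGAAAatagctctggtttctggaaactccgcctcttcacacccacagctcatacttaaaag
Bst2: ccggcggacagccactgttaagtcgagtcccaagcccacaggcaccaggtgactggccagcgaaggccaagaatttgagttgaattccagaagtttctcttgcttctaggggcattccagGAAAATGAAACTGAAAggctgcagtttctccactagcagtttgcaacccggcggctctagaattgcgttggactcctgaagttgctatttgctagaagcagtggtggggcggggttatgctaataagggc
Oas1a: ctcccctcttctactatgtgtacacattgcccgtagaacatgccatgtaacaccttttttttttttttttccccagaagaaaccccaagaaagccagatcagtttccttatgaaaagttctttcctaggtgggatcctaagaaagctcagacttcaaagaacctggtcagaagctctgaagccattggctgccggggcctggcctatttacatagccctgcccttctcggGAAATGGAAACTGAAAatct
Gbp3: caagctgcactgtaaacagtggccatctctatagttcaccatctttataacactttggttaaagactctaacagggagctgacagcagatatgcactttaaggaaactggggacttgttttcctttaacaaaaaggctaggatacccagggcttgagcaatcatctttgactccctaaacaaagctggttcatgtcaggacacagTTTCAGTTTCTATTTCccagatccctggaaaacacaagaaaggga
Isg15, a ubiquitin-like protein, stood at 49.8, 48.6 and 53.6 CPM in control and 8.61, 9.13 and 11.3 CPM in hydrogel wounds, Oas1a at 28.9, 32.5 and 26.95 CPM and 5.46, 4.26 and 5.48 CPM, and Gbp3 at 44.8, 47.3 and 47.2 CPM and 9.83, 11.9 and 9.29 CPM. Gbp3, Oas1a and Bst2 were lost in all 6 fits and Isg15 without hydrogel replicate 1 or 2. The 3 matches in Isg15 begin 66 to 78 bases before the start and run into each other.

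Lists of lymphocytes, dendritic cells and mast cells, which differ in size, gave fewer calls than the macrophage list. Of 20 T and NK cell genes 4 fell (Cd247, Cd4, Ncr1 and Gzma) and 1 rose, Trbc2 (reduced-set count 3, median -0.17). Ncr1 and Gzma were lost in all 6 fits and Trbc2 in 4. Cd4 stood at 4.09, 3.997 and 4.33 CPM in control and 0.861, 1.85 and 1.002 CPM in hydrogel wounds (-1.73 ± 0.40, adjusted p = 0.00821), and Cd247, the zeta chain of the T cell receptor, at 7.88, 8.06 and 8.24 CPM and 1.51, 2.69 and 1.2 CPM. Of 6 tested B and plasma cell genes 4 fell (Cd79b, Jchain, Ighm and Igkc, left-out range 1 to 3) and 0 rose (reduced-set count 2, median -2.48). The other 2 had positive values, and the sums over the list overlapped, at 181 to 195 CPM in control and 164 to 200 CPM in hydrogel wounds. Igkc had -2.96 ± 0.68, and Cxcl13, which draws B cells, stood at 86.8, 92.6 and 88.95 CPM and 1.58, 1.01 and 1.47 CPM (-6.05 ± 1.54, adjusted p = 0.0135). Cxcl13 lost its call without any 1 of the hydrogel wounds (adjusted p 0.0319 to 0.0594 over the 6 fits). Of 15 dendritic cell and class II genes 5 fell (Cd74, Cd80, Cd86, Cd209a and Zbtb46, reduced-set count 8) and Cd207 alone rose, and 14 of 15 had negative values. Summed over the list the level was 1040 to 1064 CPM in control and 499 to 559 CPM in hydrogel wounds. Cd74 and Cd80 were lost in all 6 fits, Cd86 and Cd209a in 2. Of 8 mast cell genes 0 passed in edgeR (median -1.41), with 3 at an unadjusted p below 0.05, 1 called by DESeq2, 6 by limma-voom, and a reduced-set count of 5. Hdc, histidine decarboxylase, had -1.40 ± 0.50 (adjusted p = 0.0569).

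Most neutrophil genes had negative values (10 of 14 tested, with 4 positive), while Il1b, Tnf and Il6 did not pass. Summed over the neutrophil list, levels were 478 to 490 CPM in control and 156 to 244 CPM in hydrogel wounds. Lcn2, given above and also made by epithelia, held most of the control sum and most of the difference between the groups. Of 14 tested neutrophil genes 3 fell, Elane (lost in 2 of 6 fits), Fpr2 (lost in all 6) and Lcn2 (reduced-set count 5), and 1 rose, Mpo (median -1.17). S100a8, a calcium-binding protein of neutrophils and stressed epidermis, stood at 54.1, 56.2 and 48.7 CPM in control and 57.3, 61.2 and 63.4 CPM in hydrogel wounds (0.19 ± 0.72, adjusted p = 0.866). Il1b, Tnf and Il6 had log2 fold changes of 0.88 ± 0.66 (adjusted p = 0.348), 0.17 ± 0.68 (adjusted p = 0.879) and 1.01 ± 0.75 (adjusted p = 0.344). Il1b ranged over 8.4, 3.3 and 14.8 CPM in hydrogel wounds around 4.76, 4.94 and 4.68 CPM in controls, and Tnf and Il6 stayed below 2 CPM in all 6 wounds. Il10, which restrains inflammation, had 0.744, 0.474 and 0.838 CPM and 0.215, 0.168 and 0 CPM (-2.36 ± 0.85, adjusted p = 0.0591). Cxcl1, a neutrophil attractant, rose from 1.12, 1.42 and 0.559 CPM to 6.32, 3.19 and 7.82 CPM (2.47 ± 0.57, adjusted p = 0.00844). Of 8 tested neutrophil-attracting chemokine and colony-stimulating factor genes 1 rose (reduced-set count 3) and 1 fell, lost in all 6 fits (reduced-set count 2). The list had 3 positive and 5 negative values (median -0.23). Summed over that list, levels were 139 to 144 CPM in control and 52.8 to 69.1 CPM in hydrogel wounds.

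Of 18 genes of the IL-6, IL-10 and IL-20 families 4 rose (Il19, Il20, Il20ra and Il20rb) and 2 fell (Il10ra and Il10rb, reduced-set count 4). Il19 was lost in 3 of 6 fits and Il10rb in 2. Il20ra and Il20rb, the receptor chains for IL-19, IL-20 and IL-24 on keratinocytes, stood at 1.04, 0.61 and 0.628 CPM and 5.35, 6.37 and 5.8 CPM in control wounds and at 10.3, 13.05 and 9.95 CPM and 35.03, 38.8 and 35.3 CPM in hydrogel wounds (3.86 ± 0.59, adjusted p = 0.00143, and 2.64 ± 0.46, adjusted p = 0.00266). Il20 had 1 count over the 3 control and 278 over the 3 hydrogel wounds. Of 15 CC chemokine genes and receptors Ccl20 and Ccl27a rose, and Ccl5 and Ccl8 (lost in all 6 fits) fell (reduced-set count 9, median -1.67). Ccl27a, a chemokine made by keratinocytes, stood at 4.16, 5.55 and 5.1 CPM and 68.5, 82.4 and 61.7 CPM (3.84 ± 0.79, adjusted p = 0.00512). In the list of inflammasome and pyroptosis genes, 3 of 14 rose (Gsdma, Gsdmc and Pycard) and 4 fell (Nlrp1b, Gsdmd, Nlrc4 and Naip5, reduced-set count 9). Pycard and Nlrc4 were lost in all 6 fits, Nlrp1b in 4, Gsdma in 2 and Naip5 in 1. Gsdmc, a gasdermin of epithelia, stood at 0, 0.0677 and 0.209 CPM and 8.9, 9.3 and 6.88 CPM. Gsdmd, another gasdermin, stood at 34.2, 35.4 and 39.8 CPM and 8.9, 11.4 and 10.02 CPM and lost its call without hydrogel replicate 1 (adjusted p 0.0331 to 0.0542).

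Genes that respond to metals and to oxidants were listed because the gel holds silver. Metallothioneins bind metal ions such as zinc and silver and are induced by them. Mt1 (chr8:94179082-94180327, plus strand) stood at 661, 641 and 656 CPM in control and 668, 379 and 1109 CPM in hydrogel wounds (0.14 ± 0.39, adjusted p = 0.825). The hydrogel values spanned the controls, and Mt1 and Mt2 (0.24 ± 0.37, adjusted p = 0.662) changed sign without hydrogel replicate 3. Of 12 metallothionein and zinc transport genes 1 rose, Slc30a2, lost without control replicate 2 (reduced-set count 4), and 0 fell (reduced-set count 1, median 0.19). Targets of NRF2, the factor that answers to oxidants, were counted beside all genes, of which 9.86% rose and 11.7% fell. Of 21 genes of NRF2 and thiol defence 1 rose, Gpx2 (reduced-set count 5), and 3 fell, Cat, Sod1 and Sod3 (reduced-set count 9, median -0.29). Gpx2 and Cat were lost in all 6 fits and Sod3 in 3. Hmox1 and Nqo1, 2 of its best known targets, stood at 104, 103 and 107 CPM and 2.83, 4.27 and 3.42 CPM in control and 63.3, 44.7 and 74.4 CPM and 6.82, 5.99 and 5.88 CPM in hydrogel wounds and did not pass (adjusted p = 0.252 and 0.0906). Sod1, which removes superoxide, fell from 739, 732 and 761.56 CPM to 228, 240.5 and 241 CPM (-1.65 ± 0.30, adjusted p = 0.0031).

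Of 19 immediate early genes, which switch on within minutes of a stimulus, 7 rose (7 in each of the 6 fits, reduced-set count 11) and 0 fell (reduced-set count 2, median 0.91), and 14 of 19 had positive values. Fosl2 stood at 52.4, 47.5 and 47.8 CPM in control and 125, 141 and 126 CPM in hydrogel wounds (1.41 ± 0.17, adjusted p = 7.21e-04), and Ier3 at 17.7, 18.4 and 14.9 CPM and 42.2, 40.1 and 51.4 CPM. The other 5 were Junb, Egr1, Egr2, Egr3 and Myc. Of 13 tested genes of EGF receptor ligands and receptors 3 rose, Erbb2, Erbb3 (lost in all 6 fits) and Epgn (lost in 5, reduced-set count 9), and 0 fell (reduced-set count 1), while Egfr itself had 0.14 ± 0.20 (adjusted p = 0.638). Erbb2 stood at 21.6, 21.3 and 20.5 CPM and 59.7, 68.996 and 69.1 CPM (1.64 ± 0.40, adjusted p = 0.0107). Of 20 mitosis genes all 20 had positive values and 2 rose, Ccnb1 and Ttk (median 0.995), and of 20 replication genes 1 rose, Mcm2 (median 0.555). Ccnb1 and Mcm2 were lost in all 6 fits and Ttk in 5, and the reduced-set counts were 16 mitosis and 13 replication genes. Mki67, the proliferation marker, stood at 35.9, 35.02 and 34.98 CPM and 102, 118 and 88.1 CPM and did not pass (1.54 ± 0.60, adjusted p = 0.0754).

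Glycolysis genes rose in 8 of 18 cases (left-out range 6 to 7, reduced-set count 14) and fell in 0 (reduced-set count 2, median 1.34). Hk2, a hexokinase of muscle, fat and growing epidermis, stood at 60.5, 60.8 and 58.9 CPM in control and 530.4, 604 and 463 CPM in hydrogel wounds (3.15 ± 0.46, adjusted p = 0.00128), and the glucose transporter gene Slc2a1 at 31.1, 31.2 and 31.1 CPM and 91.7, 107 and 83.1 CPM (1.59 ± 0.27, adjusted p = 0.00238). Of 15 tested hypoxia response genes 4 rose (Egln3, Car9, Ankrd37 and Slc2a1) and 1 fell, Epas1 (reduced-set count 3, median 0.17). Ankrd37 and Epas1 were lost in all 6 fits and Car9 in 4. Hif1a, the oxygen-regulated factor, had 0.17 ± 0.30 (adjusted p = 0.723). Nuclear genes of the respiratory chain rose in 2 of 22 cases, Cox5a (lost in 3 of 6 fits) and Atp5g1 (lost in all 6, reduced-set count 9, median 0.32), and cytosolic ribosomal protein genes in 0 of 24, with 0 falling (median 0.08), in edgeR. In that last list 0 genes had an unadjusted p below 0.05 and DESeq2 called 0, while limma-voom called 7 higher and 3 lower, and the reduced-set counts were 4 higher and 1 lower. Rpl4, of the same list, stood at 1226, 1248 and 1246 CPM and 1598, 1689.8 and 1579.9 CPM.

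The effect at day 7 was set against the mean of the effects at days 1 and 14 in the same fit. In 986 genes (5.6%) it differed, with a higher value at day 7 in 623 (3.54%) and a lower one in 363 (2.06%). Sdc4, a heparan sulphate proteoglycan of the wound edge, rose at day 7 from 52.7, 53.6 and 54.5 CPM to 145, 173 and 155 CPM, with log2 fold changes of -1.56 at day 1, 1.56 at day 7 and 0.07 at day 14. Nr4a3, an early response nuclear receptor, had -1.63, 4.33 and 0.02 at the 3 days, and Sphk1, which makes sphingosine phosphate, -2.80, 2.28 and -0.41. Igfbp3, which binds insulin-like growth factors, had log2 fold changes of -2.67 at day 1, 2.13 at day 7 and -3.79 at day 14, with 108, 103 and 99.99 CPM in control and 457, 449.99 and 454 CPM in hydrogel wounds at day 7. Lep, leptin, and Fgd2, an exchange factor of myeloid cells, had lower values at day 7 (-6.69 ± 0.66 and -3.45 ± 0.34, adjusted p = 2.09e-04 and 2.09e-04).

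By list, this difference passed upward in 8 of 15 basal keratinocyte genes, 8 of 12 sebaceous genes, 8 of 21 cholesterol genes and 8 of 19 immediate early genes, and downward in 8 of 19 adipocyte genes. It passed in 0 of 21 endothelial genes and in 0 of 15 complement genes in edgeR (5 and 1 at an unadjusted p below 0.05), where the medians at days 1, 7 and 14 were -0.35, -1.66 and -1.60, and 0.48, -2.81 and -3.83. Macrophage genes had medians of 0.69, -2.76 and -3.93. The count of 986 was 235 to 3349 without any 1 of the 18 libraries, lowest without control replicate 3 of day 7 and highest without control replicate 1 of day 1. It was 2443 without control replicate 1 of day 14, 235 to 258 without a day 7 control, 336 to 378 without a day 7 hydrogel wound, 505 to 613 without a day 14 hydrogel wound and 655 without control replicate 2 of day 14. It was 0 in edgeR with the day 7 libraries summed (870 at an unadjusted p below 0.05).

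**Figure D4:**
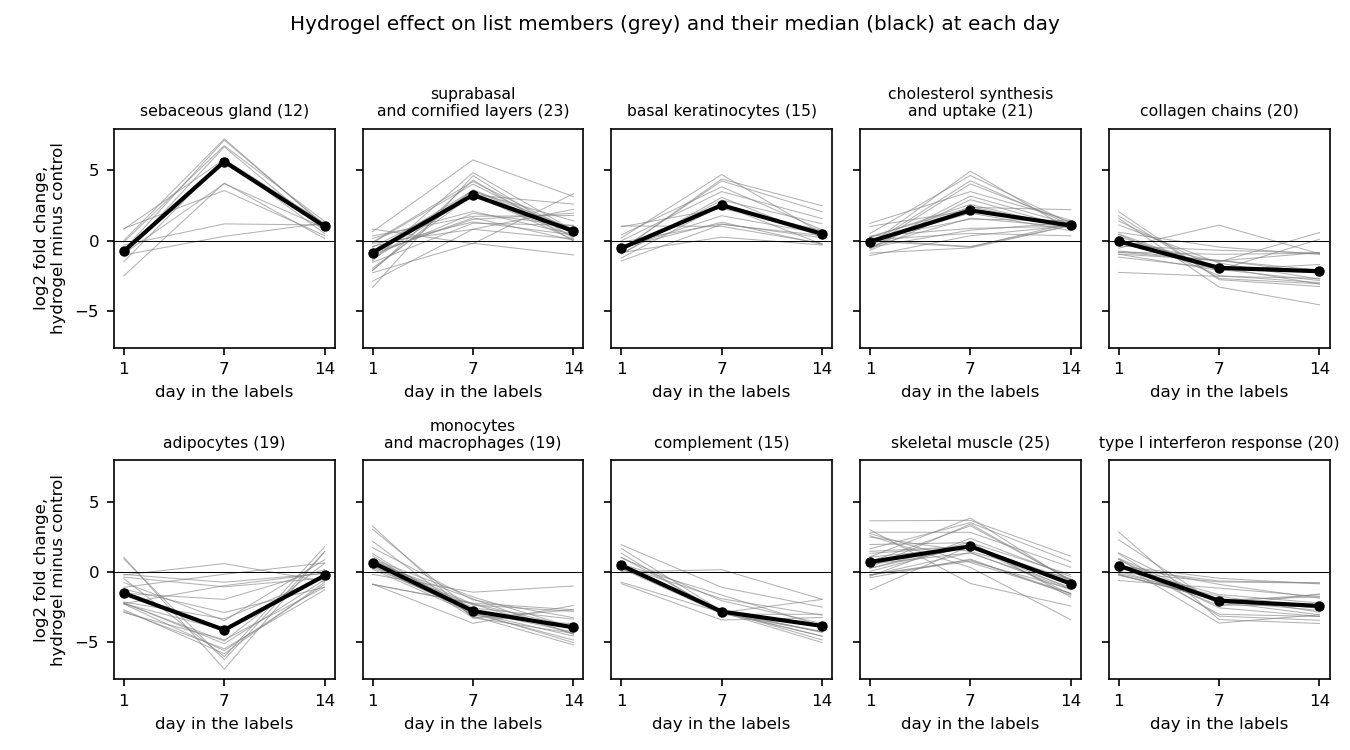
Log2 fold change of hydrogel over control wounds (y axis) at days 1, 7 and 14 (x axis) for tested members of 10 gene lists, each grey line 1 gene and the black line the list median. Sebaceous, keratinocyte and adipocyte medians are farthest from 0 at day 7, while macrophage, complement and collagen medians are at least as far below 0 at day 14.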

How the data were processed

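RNA of 18 wound libraries was analysed, 6 of them from day 7. Per the submitters' processing notes, reads were handled with Trim Galore 0.6.10, FastQC 0.11.9, HISAT2 2.2.1, SAMtools 1.9 and featureCounts 2.0.6 on mm10. Per the file headers, the authors deposited counts of read pairs per gene name over exons (GENCODE M25, GRCm38.p6), without use of strand. Pairs that map to several places or genes were not counted, so overlapping genes, antisense genes and near copies are uncertain. The 32 mitochondrial symbols were at 0.

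Samples were grouped by title and label. In R 4.3.3, genes passed filterByExpr (minimum count 10, total 15) of edgeR 4.0.16, libraries were scaled by TMM, and the quasi-likelihood F test was fitted with 6 group means (12 residual degrees of freedom). P-values were adjusted by Benjamini-Hochberg over 17592 genes. The fit was run on simulated data in which each gene had the same spread in every group, unlike in the wounds. There it found 12% of 2-fold and 82% of 4-fold changes, and 3 of 97 calls were of unchanged genes. The simulation cannot show how the fit performs with the unequal spreads of the wounds. Promoter sequences are RefSeq, GRCm38.p6, and 12480 of 17592 tested genes had a window.

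Members and lists were chosen with earlier results of these data known. The 65 lists hold 1028 symbols, of which 1018 were in the files and 989 tested. A few genes are not reported here and were left out of the lists. Genes were named by rule: the 12 largest changes per direction (at least 50 CPM in the higher group, groups not overlapping, no predicted symbols), per list the 3 most abundant and the 2 with the smallest adjusted p, the 10 with the smallest adjusted p for the difference from other days (at least 10 CPM), and a fixed panel. Where 5 or fewer members of a list counted in the text passed in a direction they are named whatever their rank. The exception is 1 member of the neutrophil-attracting chemokine list, which fell. The members so named and a few that did not pass were chosen after their values were seen. Alternatives were RLE scaling, other filters, a 2-fold minimum, DESeq2 1.42.0, limma-voom (3.58.1) with quality weights, the replicate number as a block, day 7 libraries summed, only day 7 libraries, and each library left out.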

Additional observations from a re-analysis of the deposited data

Results flagged for a closer look

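The hydrogel effect at day 7 differed from the mean of its effects at days 1 and 14 in 986 genes by the edgeR test of the difference itself. The difference (log2, day 7 minus the mean of the other days) was 8.45 for Hsd3b6, 7.51 for AAdacl4fm3, 7.38 for Serpina3b, 7.47 for Pnpla5, 6.92 for Scd3 and 7.13 for Alox12e. For Aadac it was 6.84, for Awat1 6.13, for Serpina3j 6.73, for Elovl4 6.85, for Ly6g6c 6.76 and for Krt16 5.15. Among the genes with the smallest adjusted p it was 2.30 for Sdc4, 5.13 for Nr4a3, 3.89 for Sphk1, 3.57 for Cish, 2.43 for Mst1r, 7.16 for Sox15, 2.39 for Tnfrsf12a and 5.35 for Igfbp3.

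Negative differences were -5.80 for Wfdc21, -7.43 for Adrb3, -5.16 for Saa2, -5.57 for Thrsp, -4.03 for Adipoq, -5.60 for Saa1, -6.69 for Lep and -3.45 for Fgd2. Saa1 moved from a log2 fold change of 2.68 at day 1 to -5.54 at day 7 and -2.55 at day 14. Adjusted p for these genes was 0.000209 to 0.047. Of the largest changes at day 7, Far2 (adjusted p = 0.052), Cxcl13 (0.781), Ifi27l2a (0.0883), Retn (0.0805), Pck1 (0.0597), Arxes2 (0.0673) and Cfd (0.109) did not pass this test. No group of day 7 is large enough for a test of single outlying libraries, since each holds 3.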

How the results depend on the processing

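Every gene called at day 7 kept its direction in each alternative fit that tested it. Counts of calls were not stable. For 3792 genes at day 7 (1734 higher, 2058 lower), a 2-fold minimum left 1032 (571 and 461), limma-voom with quality weights gave 12339 (6143 and 6196), only the 6 day 7 libraries in the model 11122 (5584 and 5538), and leaving out the 2 control libraries that stood apart, chosen after seeing the data, 7149 (3345 and 3804). Leaving out replicate 1 of the day 1 hydrogel wounds as well, also chosen after seeing the data, gave 9152 (4523 and 4629). Summing the libraries of each day 7 group gave 0 in either direction. Leaving out 1 day 7 library gave 1859 to 1990 (797 to 1041 higher, 874 to 1139 lower). The spread between libraries, fewer of them and a larger minimum are by construction what these settings change.

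For the 986 genes with a different effect at day 7 (623 higher, 363 lower), no filter on low counts gave 541 (368 and 173), a 2-fold minimum 147 (114 and 33), DESeq2 2009 (1248 and 761), limma-voom 8338 (3660 and 4678), the 2 libraries left out 5654 (2484 and 3170), the 3 libraries 7199 (3209 and 3990) and summed libraries 0. Leaving out 1 of 18 libraries gave 235 to 3349 (150 to 1655 higher, 85 to 1694 lower). The cause was not tested. With the replicate number as a block 4271 genes passed at day 7 and 1012 for the difference. Same-numbered day 7 libraries deviated together with correlations of 0.092, 0.031 and 0.037, so the numbers were not taken as pairs. Each library correlated best with its own number, and replicate 1 of both groups was highest in CT010467.1.

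Of 426 called list members and named genes, 208 kept the call without any 1 of the 6 day 7 libraries and 114 lost it in all 6 of these fits. Signs changed only in named genes that did not pass. Over the fits that left out 1 day 7 library, the log2 fold change ranged from -0.070 to 0.14 for Eif2s3y, -0.32 to 0.45 for Mt1, -0.040 to 0.43 for Mt2, -0.55 to 0.29 for Reln, -0.27 to 0.41 for S100a9, -0.047 to 0.083 for Slc30a4, -0.15 to 0.59 for Tnf and -0.41 to 0.054 for Uty. A depth of 12.8 to 17.4 M pairs limits genes such as Tnf, Il6 and Il10, which stayed below 2 CPM. For the difference from other days, the fit of only day 7 libraries gives no value.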

Other observations

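Imprinted growth genes, which limit or drive growth before birth and are mostly low in adult skin, fell in 8 of 13 cases at day 7 (left-out range 4 to 6) and rose in 0 (2 without the 3 libraries that stood apart, median -1.55). Plagl1, a factor that regulates other imprinted genes, stood at 32.4, 26.4 and 23.6 CPM in control and 6.53, 6.83 and 4.68 CPM in hydrogel wounds (-2.19 ± 0.42, adjusted p = 0.00375), and Rian, a maternal non-coding RNA, at 50.3, 50.8 and 50.7 CPM and 20.96, 21.2 and 21.4 CPM (-1.26 ± 0.21, adjusted p = 0.00216). H19 and Igf2 had positive values without passing, H19 at 1296, 1277 and 1304 CPM and 2448, 2221 and 2552 CPM (0.90 ± 0.71, adjusted p = 0.372). Fibroblast genes fell and muscle genes were higher in the same wounds, and their part was not tested.

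Steroid and drug metabolism split. Of 18 tested genes 6 rose and 3 fell (5 without the 3 libraries that stood apart), Cyp2e1, Gsta3 and Hsd11b1, of which Gsta3 and Hsd11b1 were lost without any 1 of the day 7 wounds. Cyp2e1, a cytochrome P450 of liver and fat, stood at 3646, 3671 and 3689 CPM in control and 155, 150.2 and 164 CPM in hydrogel wounds (-4.55 ± 0.86, adjusted p = 0.00341). Srd5a1, which makes dihydrotestosterone in skin glands, went from 2.97, 3.25 and 4.05 CPM to 50.97, 52.1 and 55.7 CPM (3.95 ± 0.67, adjusted p = 0.00238), and the aldehyde dehydrogenase gene Aldh3a1 from 7.21, 7.25 and 8.24 CPM to 189, 195 and 185 CPM. Of 19 clock genes 2 rose, Nfil3 and Ciart, the latter lost without control replicate 1 or 2 (median 0.29, 8 without those 3 libraries), with Nfil3, a repressor tied to the clock, at 27.1, 29.2 and 28.6 CPM and 84.6, 76.2 and 96.8 CPM (1.5998 ± 0.38, adjusted p = 0.00919).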
